A study of Saccharomyces cerevisiae with 14 samples.

Results

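The 8 genes described here encode the subunits of the cytosolic chaperonin CCT, also called TRiC, of *Saccharomyces cerevisiae*. They are TCP1 (YDR212W), CCT2 (YIL142W), CCT3 (YJL014W), CCT4 (YDL143W), CCT5 (YJR064W), CCT6 (YDR188W), CCT7 (YJL111W) and CCT8 (YJL008C), taken by systematic name, and all 8 were among the 6387 open reading frames (ORFs) of the array. The systematic names of all 8 carried the same symbols in the reference table of yeast genes, and none of the 8 overlapped another gene there.

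CCT is a barrel of stacked rings in which each subunit of a ring is a different, related protein, and all of them are essential for growth of yeast. The barrel encloses an unfolded protein and uses ATP to fold it, and its best known clients are actin and the tubulins. Prefoldin hands such clients over to CCT. In biochemical studies, TCP1, CCT2, CCT4 and CCT5 lie on the side of the ring that binds ATP tightly, and CCT3, CCT6, CCT7 and CCT8 on the side that binds it weakly.

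The study followed the response of strain NRRL Y-12632 to 5-hydroxymethylfurfural (HMF), an aldehyde formed from sugars during the pretreatment of plant biomass that slows yeast growth. Cultures grew in a synthetic complete medium, and HMF was added to 30 mM at 6 h after inoculation, while control cultures of the same strain received none. RNA taken at 10, 30, 60 and 120 min was labelled with Cy3 and hybridised to 14 arrays of long oligonucleotides, 7 with HMF and 7 of the control, against Cy5-labelled RNA of untreated cells at 0 min. Each group had 2 biological replicates at 10, 30 and 60 min and 1 array at 120 min, so values at 120 min had no replicate.

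Each value below is a log2 ratio to 0 min from which the median of all ORFs on the same array was subtracted, called a centred log2 ratio, so that 0 means a change equal to that of the middle ORF. As deposited, the array medians ranged from -0.32 to 1.29, and the typical ORF differed between HMF and control by medians of -0.66, -0.37, 0.26 and 0.01 at the 4 successive times. Centring removed these shifts, and a change shared by all mRNA of a cell cannot be seen on the centred scale. A ratio to 0 min gives no level, so no gene is compared with another by level.

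On the centred scale the CCT genes as a group lay above their control in the HMF cultures, by small amounts. The mean of the 4 HMF minus control differences, 1 per time, was above 0 for all 8 genes (as deposited, for all but CCT7), from 0.17 for CCT7 to 0.56 for CCT2, with a median of 0.35 against 0.00 for all ORFs. This median was 0.22 after quantile normalisation, where TCP1 had 0.19 and CCT7 0.067, and 0.15 as deposited, where that of all ORFs was -0.19. In the limma fit across all ORFs, with 1 mean per group of treatment and time, 0 of the 8 passed an adjusted p of 0.05 for this mean difference, while 724 ORFs did (325 higher, or 5.09%, and 399 lower, or 6.25%). At an unadjusted p of 0.05, 3 of the 8 were higher (CCT2, CCT6 and CCT8), against 11.7% of all ORFs. When the replicate number was added to the fit as a block, 3 of the 8 passed as higher (TCP1, CCT2 and CCT8), against 7.78% of all ORFs, and 5 did not. As deposited, 0 of the 8 and 118 ORFs passed (1.85%, 25 higher and 93 lower). Of the 112 centred values of the 8 genes, 3 were at least 2-fold above the middle ORF of their array and 0 at least 2-fold below it, with a lowest value of -0.66 and a highest of 1.25. As deposited, on the ratio to 0 min itself, 20 were at least 2-fold above 0 min and 0 at least 2-fold below it, from -0.71 to 1.85. These 20 include control values and keep the shifts between arrays, and the share over all ORFs was not computed. The highest, 1.85 for CCT4, was on control replicate 2 at 10 min, where the median of all ORFs was 1.29.

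**Figure D1:**
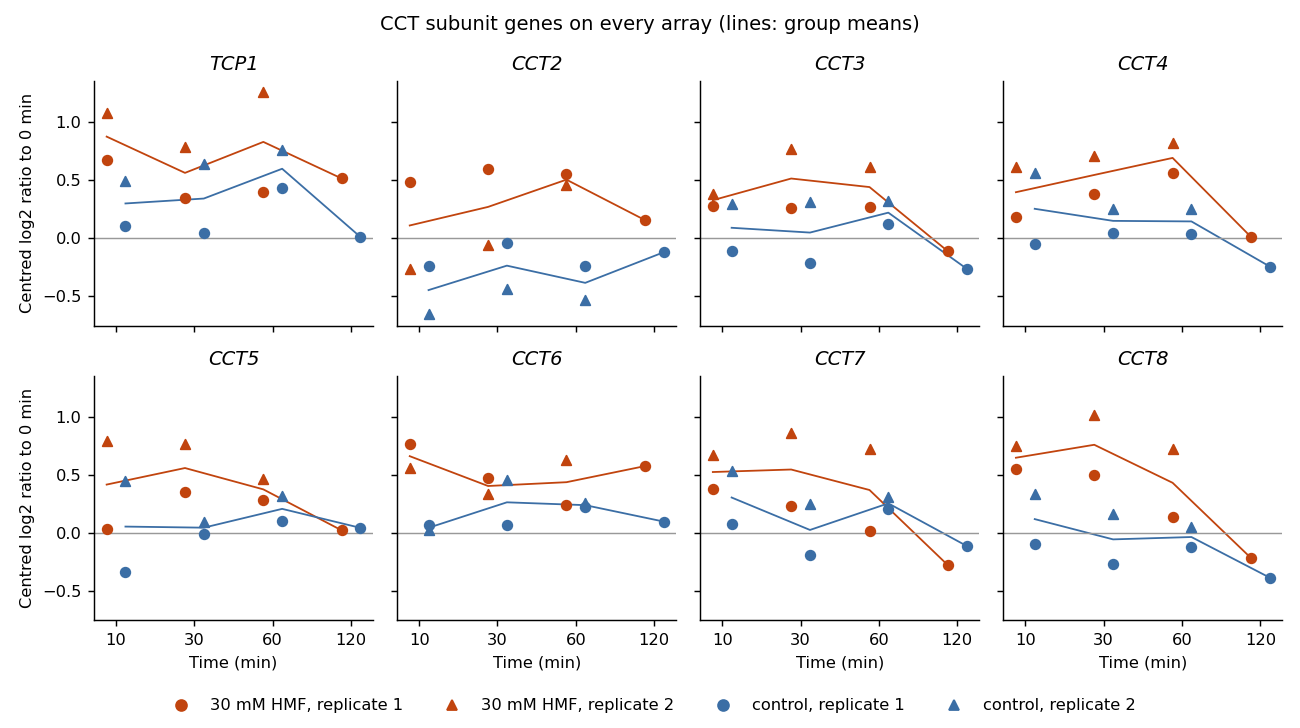
Centred log2 ratio to 0 min (vertical axis) of each CCT gene at 10, 30, 60 and 120 min (horizontal axis, times evenly spaced), with 1 point per array, circles for replicate 1, triangles for replicate 2 and lines through group means. On this scale HMF points (red) lie mostly above control points (blue) of the same time and replicate number, triangles lie above circles in every group with 2 arrays for all genes but CCT2 and CCT6, and the values run from -0.66 to 1.25.

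TCP1 encodes the alpha subunit, from which the complex took its first name. Its centred log2 ratios with HMF, for replicates 1 and 2 of each time in turn and the single array at 120 min, were 0.67 and 1.08, 0.34 and 0.78, 0.40 and 1.25, and 0.51. In the control they were 0.10 and 0.49, 0.04 and 0.64, 0.43 and 0.76, and 0.01, in the same order, which is kept below. All 14 values were above 0, both HMF arrays lay above both control arrays at 10 min, and the groups overlapped at 30 and 60 min. The mean difference was 0.38 ± 0.20 (moderated SE), with an adjusted p of 0.29, and 0.044 with the replicate block. With the block, the call held in 1 of 12 fits that each left out 1 replicated array, with an adjusted p up to 0.10 (without control replicate 2 at 60 min), and it was 0.067 without the 120 min arrays.

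CCT2, the beta subunit, stood apart in its control values on the centred scale. With HMF the centred log2 ratios were 0.48 and -0.26, 0.59 and -0.06, 0.55 and 0.46, and 0.16. In the control they were -0.24 and -0.66, -0.04 and -0.44, -0.24 and -0.53, and -0.12. All 7 centred control values were below 0, which no other CCT gene showed, and the share of all ORFs with this trait was not computed. The trait did not hold as deposited. There only control replicate 2 at 60 min was below 0 (-0.71), and the other control values ran from 0.04 to 0.64. On the centred scale HMF lay above control without overlap at 60 min and overlapped it at 10 and 30 min. The mean difference, 0.56 ± 0.19, was the highest of the 8 and ranked 602 of 6387 ORFs, with an adjusted p of 0.098. With the replicate block the adjusted p was 0.015, and it stayed at or below 0.044 in all 12 fits that left out 1 array.

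CCT4 and CCT5, the delta and epsilon subunits, complete the side that binds ATP tightly. CCT4 had centred log2 ratios with HMF of 0.18 and 0.61, 0.38 and 0.71, 0.56 and 0.81, and 0.01 at the 4 times, and of -0.05 and 0.56, 0.04 and 0.25, 0.03 and 0.25, and -0.24 in the control. Its HMF arrays lay above its control arrays without overlap at 30 and 60 min, and its mean difference was 0.33 ± 0.15 with an adjusted p of 0.23, or 0.052 with the replicate block. With the block and without the 120 min arrays the adjusted p of CCT4 was 0.044. CCT5 had values with HMF of 0.04 and 0.79, 0.35 and 0.76, 0.29 and 0.46, and 0.02, and in the control of -0.34 and 0.44, -0.01 and 0.10, 0.10 and 0.31, and 0.04. The groups were apart at 30 min, where the lower HMF array stood at 0.35 and the higher control array at 0.10, and at 10 min the spread between the replicates of CCT5 (SD 0.54 with HMF and 0.55 in the control, n = 2) was larger than the difference of 0.36. The mean difference of CCT5 was 0.25 ± 0.19, with an adjusted p of 0.46.

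On the side that binds ATP weakly, CCT8, the theta subunit, had the highest mean difference. With HMF its centred log2 ratios were 0.55 and 0.75, 0.50 and 1.01, 0.14 and 0.72, and -0.22. In the control they were -0.09 and 0.33, -0.27 and 0.16, -0.12 and 0.05, and -0.39. CCT8 was the only one of the 8 with both HMF arrays above both control arrays at 10, 30 and 60 min alike, a pattern of 5.95% of all ORFs, and both arrays at 120 min were below 0. The differences at the 4 times were 0.53 ± 0.30, 0.81 ± 0.30, 0.47 ± 0.30 and 0.17 ± 0.42, with a mean of 0.49 ± 0.17 and an adjusted p of 0.10. The difference at 10 min was 0.32 without control replicate 1, and that at 60 min was 0.17 without HMF replicate 2 and 0.76 without HMF replicate 1. With the replicate block the adjusted p was 0.014 for the mean, at most 0.040 over the 12 fits that left out 1 array, and 0.045 for the difference at 30 min, where 2.02% of all ORFs were called higher. The 30 min call did not hold when each time had its own replicate block, with an adjusted p of 0.073.

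CCT6, the zeta subunit, had values with HMF of 0.76 and 0.56, 0.48 and 0.33, 0.24 and 0.63, and 0.57 at the 4 times, and of 0.07 and 0.02, 0.07 and 0.46, 0.22 and 0.26, and 0.10 in the control. All 14 were above 0, as for TCP1, and the groups were farthest apart at 10 min, where the difference was 0.62 ± 0.23 (unadjusted p of 0.024 and adjusted p of 0.20, limma). At 120 min with HMF it stood at 0.57, the highest of the 8 genes there, while CCT3, CCT7 and CCT8 of its side were below 0. Its mean difference was 0.36 ± 0.13, with an adjusted p of 0.11, or 0.083 with the replicate block.

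CCT3 and CCT7, the gamma and eta subunits, were the genes whose groups overlapped at 10, 30 and 60 min alike. CCT3 had values with HMF of 0.27 and 0.38, 0.26 and 0.76, 0.26 and 0.61, and -0.11, and in the control of -0.11 and 0.29, -0.21 and 0.31, 0.12 and 0.32, and -0.26. HMF was higher in each of the 7 pairs of arrays with the same time and number, although the groups overlapped, and the mean difference was 0.27 ± 0.16 (adjusted p of 0.35). CCT7 had values with HMF of 0.38 and 0.67, 0.23 and 0.86, 0.02 and 0.72, and -0.28, and in the control of 0.08 and 0.53, -0.19 and 0.24, 0.20 and 0.31, and -0.11. HMF was the lower array of CCT7 at 120 min, and the mean difference of 0.17 ± 0.19 (adjusted p of 0.63) was smaller than its error. As deposited, the CCT7 mean difference was -0.021, where the median of all ORFs was -0.19, and those of the other 7 genes stayed above 0.

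**Figure D2:**
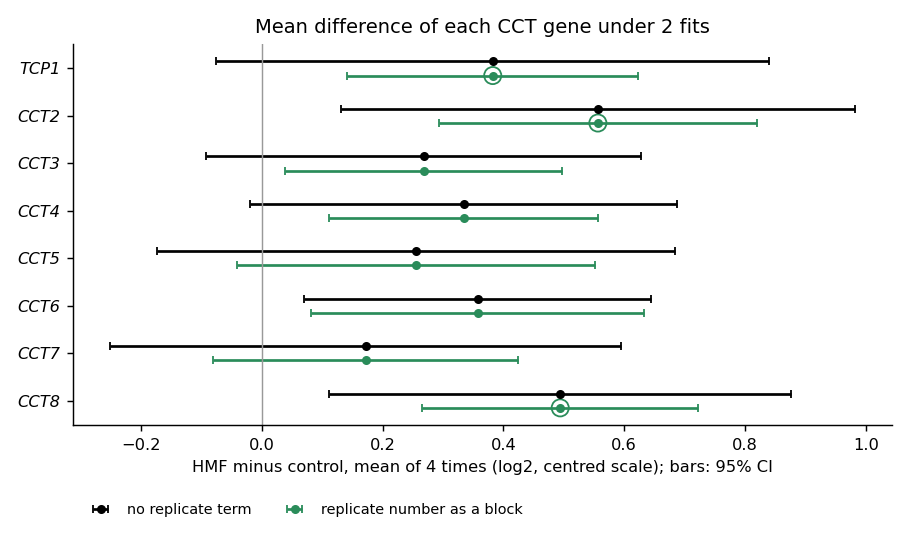
Mean over the 4 times of the HMF minus control difference (horizontal axis, log2, centred scale) for each CCT gene (vertical axis), with bars for 95% confidence intervals, without a replicate term (black) and with the replicate number as a block (green); a ring marks an adjusted p of at most 0.05. The means are the same under both fits, from 0.17 to 0.56 (CCT7 was at -0.021 as deposited), the intervals of all 8 genes overlap, and TCP1, CCT2 and CCT8 are ringed with the block.

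The order of the mean differences was CCT2 (0.56), CCT8 (0.49), TCP1 (0.38), CCT6 (0.36), CCT4 (0.33), CCT3 (0.27), CCT5 (0.25) and CCT7 (0.17), and neighbours in that order differed by less than their standard errors. Among all 6387 ORFs these stood at ranks 602, 721, 1000, 1062, 1144, 1460, 1519 and 2006 from the highest. Both sides of the ring were spread through this order, with CCT2 and CCT8 from different sides at its head.

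By time, the medians of the 8 differences were 0.44, 0.48, 0.23 and 0.21 from the first time to the last, against medians between -0.02 and 0.02 for all ORFs. As deposited they were -0.22, 0.14, 0.47 and 0.21, so that the highest median was at 60 min and not at 30 min. Single arrays moved the centred medians, to 0.17 at 10 min without control replicate 1, to 0.22 at 30 min without HMF replicate 2, and at 60 min to 0.06 without HMF replicate 2 and 0.56 without HMF replicate 1. On the centred scale, but not as deposited or after quantile normalisation, all 8 differences were above 0 at 10, 30 and 60 min, where 50.4%, 48.2% and 51.4% of all ORFs were. At 120 min 6 of 8 were above 0, against 51.6% of all ORFs. CCT5 (-0.02) and CCT7 (-0.17) were the exceptions at 120 min, on 1 array per group, and the other 6 genes were higher with HMF at all 4 times, as were 18.1% of all ORFs. The highest difference at each time belonged to a different gene: CCT6 at 10 min (0.62), CCT8 at 30 min (0.81), CCT2 at 60 min (0.89) and TCP1 at 120 min (0.50).

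In the fit without a replicate term, 0 of the 8 passed at any single time, where 2.14%, 2.57%, 0.971% and 0.204% of all ORFs did at 10, 30, 60 and 120 min. At an unadjusted p of 0.05, 1 gene was higher at each of the first 3 times, namely CCT6, CCT8 and CCT2, and 0 at 120 min, against 6.92%, 6.95%, 6.11% and 3.68% of all ORFs. The direction at 10 min depended on the scale. As deposited, all 8 differences were below 0 at 10 min, from -0.53 for CCT4 to -0.052 for CCT6, each above the median of all ORFs of -0.66, and TCP1 (-0.12) and CCT6 (-0.20) were below 0 at 30 min. After quantile normalisation 5 single differences were below 0, those of CCT4 (-0.045) and CCT7 (-0.0027) at 10 min, CCT6 (-0.019) at 30 min, and TCP1 (-0.055) and CCT7 (-0.035) at 60 min.

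HMF arrays lay above control arrays without overlap for 3 of 8 genes at each replicated time, namely TCP1, CCT6 and CCT8 first, CCT4, CCT5 and CCT8 at 30 min, and CCT2, CCT4 and CCT8 at 60 min. The corresponding shares of all ORFs were 19%, 21.7% and 24.2%. Across the times, 0 of the 8 had every HMF array above every control array, against 2.36% of all ORFs. When arrays of the same time and number were set against each other, HMF was higher in 7 of 7 pairs for CCT2, CCT3, CCT4 and CCT8, as for 9.63% of all ORFs. It was higher in 6 of 7 for TCP1, CCT5 and CCT6 and in 5 of 7 for CCT7, and 20.1% of all ORFs were higher in at least 6.

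A change of the difference with time was not detected. The limma test of whether the difference changed between times gave adjusted p-values of 1.00 for all 8 genes, with 0 of 6387 ORFs past the limit and 291 at an unadjusted p of 0.05, none of them a CCT gene. The mean of the later times minus 10 min had a median over the 8 genes of -0.14 with HMF and -0.04 in the control, and 0 of 8 passed in either, against 3.29% of all ORFs with HMF and 0% in the control (245 ORFs at an unadjusted p of 0.05, none of them a CCT gene).

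The differences between the 2 arrays of a group were of a size with those between the treatments. On the centred scale (as deposited, in 4 of 6 groups) TCP1, CCT3, CCT4, CCT5, CCT7 and CCT8 were higher in replicate 2 than in replicate 1 in all 6 groups with 2 arrays, a pattern of 8.67% of all ORFs, by a median of 0.29 (CCT4) to 0.44 (CCT7). CCT2 was lower in replicate 2 in all 6 groups (as deposited, in 3), a pattern of 10.2% of all ORFs, by between 0.09 (HMF at 60 min) and 0.74 (HMF at 10 min). CCT6 was higher in replicate 2 in 3 of 6 groups, with differences from -0.21 to 0.39. CCT6 and CCT2 were set apart from the other 6 genes after these values were seen, and the part of the replicate number in these differences was not tested.

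**Figure D3:**
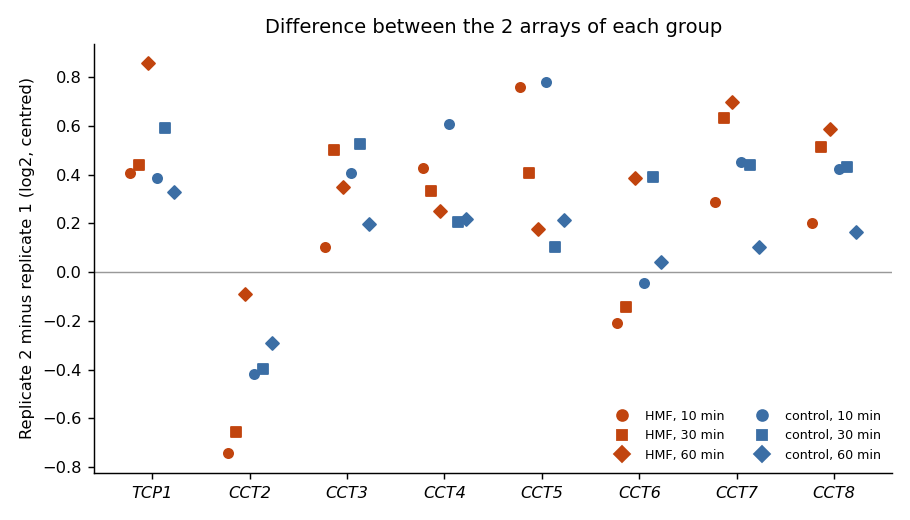
Replicate 2 minus replicate 1 in centred log2 ratio (vertical axis) for each CCT gene (horizontal axis), with 1 point per group of treatment (colour) and time (shape) that had 2 arrays. For 6 genes all points lie above 0 on this centred scale, for CCT2 all lie below 0, from -0.74 to -0.09, and those of CCT6 lie on both sides, while as deposited no gene is on 1 side in all 6 groups.

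The likeness of the genes was measured over the 14 arrays, whose values hold these replicate differences too and which share the 0 min reference channel and, in same-numbered arrays, whatever the number stands for. Among the 6 genes without CCT2 and CCT6, the 15 pairs had Pearson correlations from 0.69 to 0.91, with a median of 0.80. The 6 pairs of CCT6 with these genes ranged from 0.27 to 0.67. The 7 pairs with CCT2 ranged from -0.10 to 0.53, the highest being that with CCT6, with a median of 0.10. Set against the mean of the other 7 genes, CCT8 had a correlation of 0.93 and CCT3 of 0.90, while CCT6 had 0.57 and CCT2 0.15.

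The 5 ORFs outside the family whose 14 values were most like the mean of the 8 genes were PCP1, a protease of the mitochondrial inner membrane (Pearson correlation 0.96), RPN1, a subunit of the regulatory particle of the proteasome (0.95), PAP1, the poly(A) polymerase (0.94), HEM2, an enzyme of heme synthesis (0.94), and RPT5, an ATPase of the proteasome (0.94). Their mean differences were larger than the CCT median in 4 of 5 cases, at 0.68 for PCP1, 0.75 for RPN1, 0.60 for HEM2 and 0.73 for RPT5, and 0.27 for PAP1. PCP1 (adjusted p of 0.035), RPN1 (0.041) and RPT5 (0.027) were called higher with HMF in the fit without a replicate term. Of all ORFs, 5.09% were called higher there, and HEM2 (0.056) and PAP1 (0.19) were not called. The 5 were picked for likeness to the CCT mean over these same HMF and control arrays. The choice itself favoured differences in the CCT direction, so their correlations, differences and calls are a description only.

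Around CCT, the genes of prefoldin, which brings proteins to it, were not called. Of the 6 prefoldin genes, 0 passed in the mean difference, where 5.09% of all ORFs were called higher and 6.25% lower. Their median was 0.07, from 0.00 for GIM4 to 0.09 for GIM3. All 6 differences were above 0 at 30 and 60 min and 1 each at 10 and 120 min, and as deposited all 6 mean differences were below 0.

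Of the 7 client genes, ACT1 for actin, TUB1 and TUB3 for alpha-tubulin, TUB2 for beta-tubulin, and CDC20, CDH1 and CDC55 for cell cycle regulators with WD repeats, 1 was called. TUB2 was called lower with HMF, as were 6.25% of all ORFs, with a mean difference of -0.68 ± 0.13 and an adjusted p of 0.011. This call rested on 1 array, since the control array at 120 min stood at 1.92 and the other 6 control arrays between -0.17 and 0.24. Without the 120 min arrays the mean difference was -0.26, with an adjusted p of 0.27. The other 6 clients ranged from -0.18 for CDC55 to 0.11 for TUB3, with ACT1 at -0.14 ± 0.18, and the median of the 7 was -0.11. TUB1 and TUB3 are similar in sequence and may share signal on the array.

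Of the 5 tubulin folding cofactors, which act on tubulin after CCT, CIN2 was called lower, as were 6.25% of all ORFs. Its mean difference was -0.74 ± 0.14, with an adjusted p of 0.010 (0.051 after quantile normalisation). Its first 4 HMF arrays were at -1.20, -1.06, -1.08 and -1.12, those at 60 min at -0.15 and -0.25 and that at 120 min at -0.40, and all control arrays were at -0.18 or above, so that the groups overlapped at 60 min. The other 4 ranged from -0.31 for ALF1 to 0.32 for RBL2, none of them called.

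The chaperones that meet new proteins at the ribosome lay on the other side of 0. Of 7 genes, 2 fell with HMF, against 6.25% of all ORFs. These were SSB1 (-0.90 ± 0.12, adjusted p of 0.0029) and SSB2 (-0.87 ± 0.14, adjusted p of 0.0049), which encode near-identical Hsp70 proteins and may share signal on the array. SSB1 ranged from -1.37 to -0.57 on the 7 HMF arrays and from -0.28 to 0.06 on the 7 control arrays, without overlap. None of the 7 mean differences was above 0, the highest was -0.01 for BTT1, and the median was -0.52. BTT1 alone of the 7 had differences above 0 at 10 min (0.28) and 60 min (1.27), and none of the 7 had at 30 and 120 min. Its replicates lay far apart, at 2.87 and 0.93 with HMF at 10 min. With the replicate block EGD1 (-0.55, adjusted p of 0.016) and EGD2 (-0.52, adjusted p of 0.014), subunits of the nascent polypeptide-associated complex, were called as well, which makes 4 of 7 against 9.08% of all ORFs lower.

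Of the 11 cytosolic heat shock chaperone genes, 2 rose in the mean difference, against 5.09% of all ORFs. These were SSA4 (1.18 ± 0.21, adjusted p of 0.0084), an inducible Hsp70, and HSP26 (1.21 ± 0.28, adjusted p of 0.027), a small heat shock protein. At 10 min SSA4 stood at 3.95 and 3.24 with HMF against 1.21 and 0.26, and HSP26 at 3.45 and 3.18 against 1.37 and 0.68. SSA4 had a difference of 2.86 at 10 min (adjusted p of 0.016), while the highest CCT difference at that time was 0.62. HSP26 lost its call without the 120 min arrays (0.90, adjusted p of 0.086) and in 7 of the 12 fits that left out 1 array. The median of the 11 differences went from 0.73 at 10 min to -0.41 at 30 min, where the CCT median was 0.48, and to 0.31 and 0.57 at 60 and 120 min, where the CCT medians were 0.23 and 0.21. However, 0 ORFs passed the test of a change of the difference with time, and single arrays were not left out for these list medians. HMF replicates at 30 min lay apart in both directions, as for HSP104 (0.82 and -0.99) and YDJ1 (-0.17 and 0.84). For the mean of the 4 times the median of the 11 was 0.21, with SIS1 lowest at 0.06. As deposited, 6 of the 11 mean differences were above 0.

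The mitochondrial chaperonin, a relative of CCT that folds proteins imported into the matrix, is made of HSP60 with its lid HSP10. HSP10 rose with HMF, with a mean difference of 0.74 ± 0.18 and an adjusted p of 0.035, and HSP60 had 0.36 ± 0.19 and an adjusted p of 0.30. HSP10 values were 0.59 and 1.12, 0.44 and 1.08, 0.74 and 0.66, and 1.13 with HMF at the 4 times, and -0.49 and 0.31, -0.03 and 0.04, -0.02 and -0.14, and 0.66 in the control. The groups did not overlap at any time. HSP10 lost its call after quantile normalisation (adjusted p of 0.083) and in 8 of the 12 fits that left out 1 array. In the two-factor fit without moderation HSP10 (adjusted p of 0.063) and HSP26 (0.068) were not called. As deposited, none of the 7 genes named as called outside CCT in these lists passed, and each kept its direction.

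**Figure D4:**
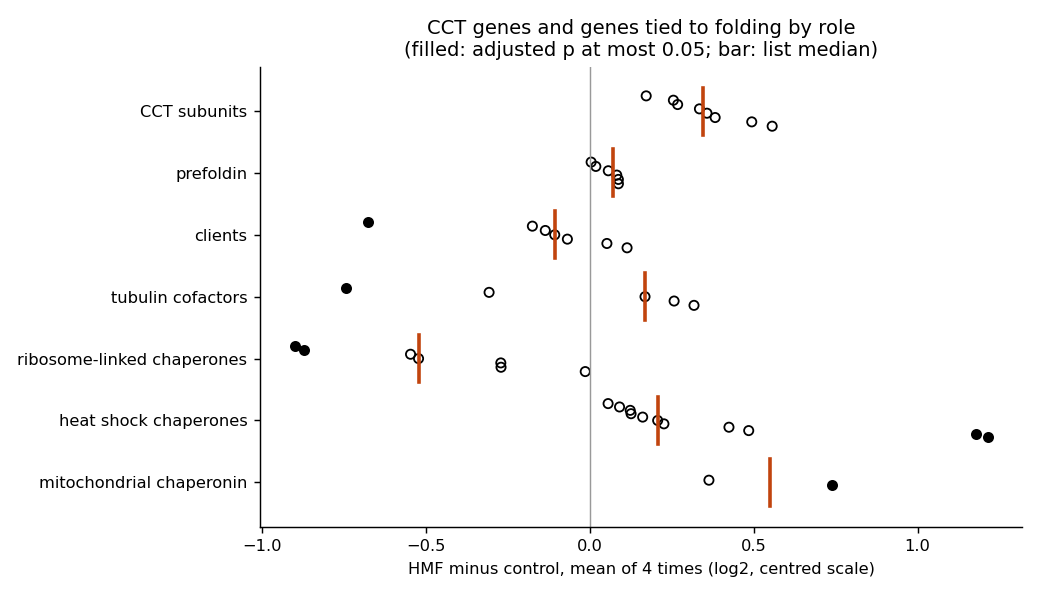
Mean over the 4 times of the HMF minus control difference (horizontal axis, log2, centred scale) of the CCT genes and of the 6 lists of genes tied to protein folding (vertical axis), with 1 point per gene, filled where the adjusted p was at most 0.05, and a bar at the list median. The 8 CCT points lie between 0.17 and 0.56, all open, the ribosome-linked chaperones lie at or below -0.01, and SSA4 and HSP26 lie farthest to the right.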

How the data were processed

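The authors scanned the 2-colour arrays on a GenePix reader, subtracted background from median foreground signals, examined spots by hand and scaled every slide by CAB, an added control transcript. How duplicate spots were combined is not stated. The authors deposited 1 log2 ratio of test (Cy3) to 0 min reference (Cy5) for each of 6387 ORFs on each of 14 arrays. The log base and direction were checked against the study's fold changes, and of the ORFs 5840 had a symbol in the R64 gene table. Signal intensities were not used here, so precision rests on the number of arrays.

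For this account, each array was centred on its median and 1 mean per group of treatment and time was fitted with limma 3.58.1 in R 4.3.3 (lmFit, eBayes, 6 residual and 2.53 prior degrees of freedom). P-values were adjusted by Benjamini-Hochberg over all ORFs within a contrast, with a limit of 0.05, and the scripts were tested on simulated data. The single arrays at 120 min are assumed to vary like the replicated groups. The genes named are the 8 CCT genes, in each list of related genes the highest, the lowest and any called, other list members named with their list, and the 5 ORFs most like the CCT mean. The 8 genes and the lists were chosen with earlier results of these data known. One result of a related gene list is not reported here.

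The labels give all groups the same replicate numbers and state no pairing. The correlation over ORFs of replicate 1 minus replicate 2 between HMF and control was 0.31, 0.28 and 0.17 at 10, 30 and 60 min, all above 0.1, and 0.02 to 0.36 over the 15 pairs of groups. The numbers were therefore also fitted as a block. Other alternatives were the scale as deposited, quantile normalisation, the array mean, a separate block per time, eBayes in its robust form, a two-factor fit without moderation, and arrays left out. Promoter motifs and protein sequences of the 8 genes were not analysed here.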

Additional observations from a re-analysis of the deposited data

How the results depend on the processing

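Across the alternatives the mean difference stayed above 0 for all 8 CCT genes, with the exception of CCT7 as deposited (-0.021), and in fits without a block 0 of the 8 passed. The values as deposited, which keep the shifts between arrays, put the differences at 10 min at -0.093 for TCP1, -0.11 for CCT2, -0.43 for CCT3, -0.53 for CCT4, -0.31 for CCT5, -0.052 for CCT6, -0.45 for CCT7 and -0.14 for CCT8. On that scale the 30 min differences of TCP1 and CCT6 were -0.12 and -0.20, and the counts of ORFs called were 43, 17, 12 and 1 at the 4 times, 118 for the mean difference, 4 and 5 for later times minus 10 min in the control and with HMF, and 5 for the change of the difference with time. Quantile normalisation gave -0.045 for CCT4 and -0.0027 for CCT7 at 10 min, -0.019 for CCT6 at 30 min, and -0.055 for TCP1 and -0.035 for CCT7 at 60 min, with 10, 23 and 7 ORFs called at 10, 30 and 120 min and 0 for later times minus 10 min with HMF. The two-factor fit without moderation called 4 ORFs at 120 min and 1 for the control course. The cause was not tested in any of these cases.

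With the replicate block, 3 of the 8 genes passed in the mean difference, against 7.78% of all ORFs called higher, and 1 at 30 min. The ORFs called were 456, 335 and 172 at 10, 30 and 60 min, against 137, 164 and 62 without the block, and 562 for the HMF course. With a block at each time, 2 of the 8 passed in the mean (CCT2 and CCT8), where 1062 of 6387 ORFs did (484 higher and 578 lower). At 30 min 0 of the 8 and 226 ORFs passed. In the same fit 286, 26 and 0 ORFs were called at 10, 60 and 120 min and 370 for the HMF course. The blocks changed no other call of the 8 genes. The median of the control course over the 8 genes was 0.035 with the block and 0.058 without the 120 min arrays, against -0.035. Combining the block with arrays left out was a setting chosen after seeing the data. With the block and without the 120 min arrays, 3 genes passed (CCT2, CCT4 and CCT8), as did 1123 of 6387 ORFs in either direction.

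Leaving out 1 of the 12 replicated arrays moved the mean difference of CCT7 between 0.085 (without HMF replicate 2 at 60 min) and 0.26, and that of CCT5 between 0.16 (without control replicate 1 at 10 min) and 0.35, and turned the sign of some single differences. At 10 min CCT4 ranged from -0.16 to 0.45, CCT5 from -0.028 to 0.75 and CCT7 from -0.0068 to 0.45, the ends being the fits without control replicate 1 and without control replicate 2. At 30 min TCP1 ranged from -0.075 to 0.52 and CCT6 from -0.055 to 0.34, again by the control replicate left out, and at 60 min TCP1 ranged from -0.20 to 0.66 and CCT7 from -0.23 to 0.46, by the HMF replicate left out. The median of the control course ranged from -0.32 to 0.091 without control replicate 1 or 2 at 10 min. The counts of ORFs called ranged from 11 to 111 at 10 min, 6 to 124 at 30 min, 1 to 50 at 60 min and 1 to 6 at 120 min, from 497 to 726 for the mean difference, from 0 to 10 for the control course and from 0 to 295 for the HMF course. A lone array left in a group was assumed to vary like the other groups.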
